A study of Homo sapiens with 12 samples.

Results

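SHEP cells given 4-hydroxytamoxifen (OHT) and doxycycline (Dox) together were compared with SHEP cells given neither compound, which sets the net state of doubly treated cells against untreated cells. SHEP is a human neuroblastoma cell line, and all libraries came from cells that carry a MYCN-ER fusion, switched on by OHT at 200 nM, and a short hairpin RNA against TCEAL1, switched on by Dox at 1 µg/ml. The OHT_Dox group (MYCN-ER active, hairpin induced) and the Ctrl group (both switches off, constructs still present) held 3 libraries each, 6 of the 12 in the series, and the OHT group and the Dox group had 1 compound each. Genes entered where at least 3 of the 6 libraries reached 0.5 CPM (counts per 1000000 reads of a library), which left 18089 of 28576 genes, and 10487 stayed below. Cells that lack the constructs were not analysed here, so an effect of OHT or Dox as a compound cannot be told apart from an effect of the construct it switches on. The labels give no treatment times, no hairpin sequence and no statement on whether the line is 1 clone or whether replicates were separate cultures, so the spread behind each p-value is that between libraries and may be technical.

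MYCN is a transcription factor of the MYC family that binds DNA with MAX, preferentially at the E-box CACGTG, and its gene is amplified in many aggressive neuroblastomas. MYC proteins raise genes of ribosome assembly, nucleotide synthesis and nutrient uptake, and can lower genes of the matrix and of differentiated cells. TCEAL1 belongs to a family of small proteins related to the elongation factor TFIIS, and the study's title places it in a complex with the deubiquitinases USP11 and USP7 that acts on paused RNA polymerase II.

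The E-box is shown here in the promoters of 3 genes among the largest rises that hold it in a window from 250 bases before to 50 bases after the RefSeq start (GRCh38.p14), and of KLF6, which among the 15 largest falls with a promoter in the table alone held it. BHLHE41 lies at chr12:26124988-26125287 (minus strand), TAF4B at chr18:26226195-26226494 (plus strand), CIPC at chr14:77098008-77098307 (plus strand) and KLF6 at chr10:3785160-3785459 (minus strand). Sequences run 5′ to 3′ on the gene's strand, with CACGTG in capitals.
BHLHE41: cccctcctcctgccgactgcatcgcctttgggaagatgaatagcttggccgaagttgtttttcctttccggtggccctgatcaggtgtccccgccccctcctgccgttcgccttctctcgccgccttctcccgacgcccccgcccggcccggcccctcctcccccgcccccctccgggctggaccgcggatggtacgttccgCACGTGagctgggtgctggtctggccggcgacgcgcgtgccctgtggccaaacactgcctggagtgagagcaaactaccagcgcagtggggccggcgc
TAF4B: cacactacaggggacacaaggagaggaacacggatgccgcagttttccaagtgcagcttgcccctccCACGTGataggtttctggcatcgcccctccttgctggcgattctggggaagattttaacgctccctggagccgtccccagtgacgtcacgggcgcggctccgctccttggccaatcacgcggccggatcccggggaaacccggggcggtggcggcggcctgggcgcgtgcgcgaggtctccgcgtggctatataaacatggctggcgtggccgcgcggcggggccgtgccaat
CIPC: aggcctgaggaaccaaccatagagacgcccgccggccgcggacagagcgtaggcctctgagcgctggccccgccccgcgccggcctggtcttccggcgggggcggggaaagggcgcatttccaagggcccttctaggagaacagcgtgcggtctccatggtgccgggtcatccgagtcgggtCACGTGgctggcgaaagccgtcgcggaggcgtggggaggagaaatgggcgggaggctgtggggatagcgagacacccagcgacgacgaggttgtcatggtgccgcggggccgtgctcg
KLF6: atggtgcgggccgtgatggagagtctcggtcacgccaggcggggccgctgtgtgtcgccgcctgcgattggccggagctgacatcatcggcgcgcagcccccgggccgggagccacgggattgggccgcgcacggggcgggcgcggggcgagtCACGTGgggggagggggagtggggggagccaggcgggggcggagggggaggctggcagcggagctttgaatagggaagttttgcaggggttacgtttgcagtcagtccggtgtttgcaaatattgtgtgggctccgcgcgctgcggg

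CACGTG is its own reverse complement, so 1 search covered both strands. The first base of the word lay 48 bases upstream of the start in BHLHE41, 183 in TAF4B, 68 in CIPC and 97 in KLF6. TAF4B, a subunit of the general transcription factor TFIID, averaged 56.6 ± 3.17 CPM in OHT_Dox libraries and 21.4 ± 1.33 CPM in Ctrl libraries (SD, n = 3 each). CIPC, a repressor of the CLOCK protein, averaged 45.5 ± 1.27 CPM in OHT_Dox libraries and 19.1 ± 0.94 CPM in Ctrl libraries (SD, n = 3 each). The word was in 13.2% of 1898 promoters of genes called higher, in 6.53% of 1332 promoters of genes called lower, in 9.62% of 7943 promoters of genes not called, in 9.85% of 11173 promoters of all genes tested and in 7.43% of all 27305 promoters of the table. Past 2-fold it was in 14.1% of 85 promoters of genes called higher and in 11.8% of 34 promoters of genes called lower. Of the 15 largest rises 11 had a promoter in the table and 1 held the word, and of the 15 largest falls 9 had a promoter and 1 held it. These shares describe letters in a window and were not tested.

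The counts recovered from the CPM values summed over genes to between 44466458 and 57694970 in the 12 libraries. A read in overlapping genes, or both reads of a pair, may count more than once in these sums, which was not tested. The first principal component of all 12 (39.1% of the variance) set the 6 libraries with OHT apart from the 6 without. Replicates differed by more than counting noise in every group, with a mean chi-square per gene between 6.23 and 24.4. OHT_Dox replicate 3 stood apart in base composition: its deviation from the gene means rank-correlated with GC content at 0.473, against -0.358 to 0.213 in the other 11. The 11 mesenchymal neuroblastoma markers were all tested, and their summed level was 3585 to 3784 CPM in OHT_Dox libraries and 4262 to 4549 CPM in Ctrl libraries. Most of that sum in both groups was VIM, given below, so it does not describe the markers as a set. Of 10 adrenergic markers 4 were tested, with a summed level over the 9 listed of 134 to 142 CPM in OHT_Dox libraries and 102 to 110 CPM in Ctrl libraries, and PHOX2A, DBH and CHGA were among those below the filter. The rise of GATA2, given below, is part of this difference. The epithelial and haematopoietic markers summed to 21.2 to 24.8 CPM in OHT_Dox libraries and 24.0 to 27.4 CPM in Ctrl libraries.

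TCEAL1, the hairpin's target, was low in every library given Dox. It had 2.58, 2.50 and 1.73 CPM in OHT_Dox libraries and 9.71, 9.11 and 10.7 CPM in Ctrl libraries, so the groups did not overlap. The log2 difference was -1.91 ± 0.13 (SE, adjusted p = 2.76e-09). Values of log2 differences are on the log2(CPM + 0.5) scale from a limma fit, and p-values were adjusted (Benjamini-Hochberg) across the 18089 genes. TCEAL1 averaged 2.27 CPM in OHT_Dox libraries, 8.99 CPM with OHT alone, 2.63 CPM with Dox alone and 9.84 CPM in Ctrl libraries, and its difference between OHT_Dox and Dox did not pass the test (-0.19, adjusted p = 0.309). An exon of TCEAL1 overlaps TCEAL3 on the same strand in GENCODE 29, so reads there may be shared.

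MYCN did not differ beyond the test's threshold. It had 429, 376 and 470.1 CPM in OHT_Dox libraries and 572, 436 and 479 CPM in Ctrl libraries, which overlapped, with a log2 difference of -0.22 ± 0.10 (adjusted p = 0.138). With the trend of transcript length and GC content removed it passed (-0.27, adjusted p = 0.0354), and it did not when any 1 library was left out. These reads cannot be divided between the endogenous gene and the MYCN-ER fusion, and OHT acts on the protein, so the MYCN level does not check the OHT label. USP11 was lower, at 106, 101 and 110.4 CPM in OHT_Dox libraries and 122.1, 125.4 and 125.9 CPM in Ctrl libraries (log2 difference -0.24 ± 0.06, adjusted p = 0.00507). Against the same Ctrl libraries it was -0.30 with OHT alone (adjusted p = 0.00083) and -0.08 with Dox alone (adjusted p = 0.386). The difference of USP11 between OHT_Dox and OHT did not pass the test (0.07, adjusted p = 0.675). USP7 averaged 169 CPM in OHT_Dox and 157 CPM in Ctrl libraries (adjusted p = 0.209), and TCEA1, which encodes TFIIS, averaged 159.9 CPM in OHT_Dox and 165 CPM in Ctrl libraries (adjusted p = 0.637); neither passed the test.

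Across the transcriptome 4729 of the 18089 genes were called at an adjusted p below 0.05 (26.1%), of which 2804 were higher (15.5%) and 1925 lower (10.6%) in OHT_Dox. The split turned with the trend of transcript length and GC content removed from each library, which gave 2788 higher and 2965 lower calls, so that 48.5% of calls were higher in place of 59.3%. Most changes were small, with a median log2 difference of 0.41 among genes called higher and -0.33 among genes called lower, and 129 rose and 51 fell past 2-fold. Past 2-fold the counts were 230 higher and 116 lower with edgeR, 230 and 113 with DESeq2, and 221 and 85 with a pseudocount of 0.1. The OHT_Dox and Ctrl libraries did not overlap at 6742 genes (37.3%). Calls were made at 29.3% of 13216 protein-coding genes, 19.7% of 3428 long noncoding genes and 12.5% of 1354 pseudogenes. In the same fit OHT alone against the same Ctrl libraries called 22.2% of genes (13% higher, 9.16% lower) and Dox alone 8.64% (5.93% higher, 2.71% lower).

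**Figure D1:**
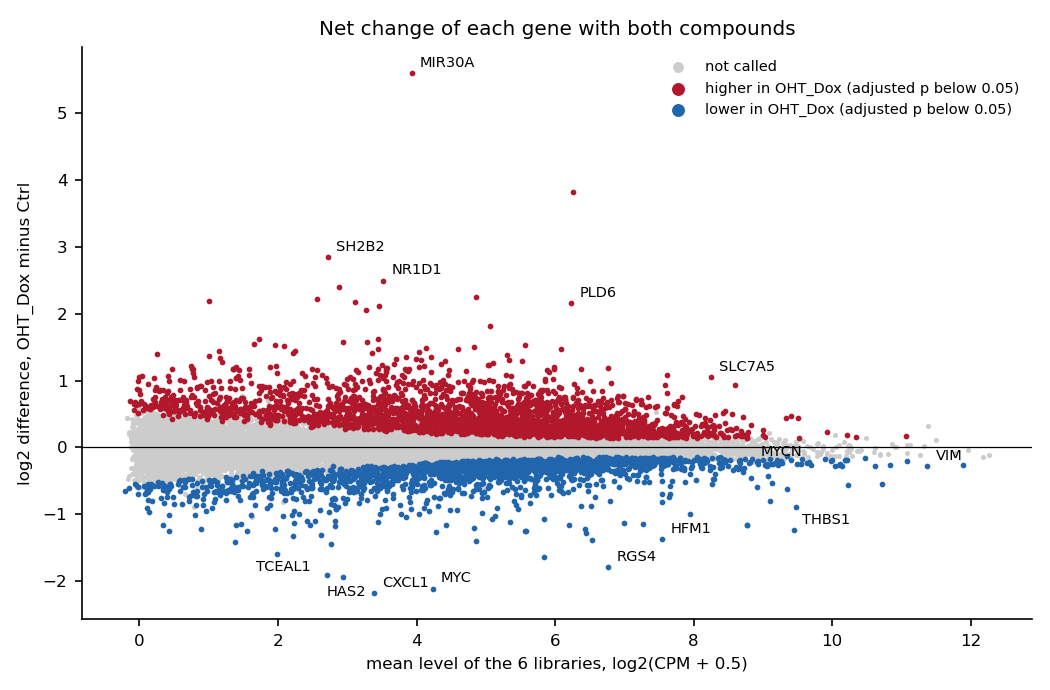
Net change of each of the 18089 genes. The x axis is the mean level of the 6 libraries, log2(CPM + 0.5), the y axis the log2 difference, OHT_Dox minus Ctrl; red points are the 2804 genes called higher, blue points the 1925 called lower, grey points the rest. Most red and blue points lie within 1 log2 unit of 0, and MIR30A stands highest at 5.59.

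Among called genes with at least 5 CPM in the higher group, leaving out clone, LINC, MIR and antisense symbols, the 15 largest rises were SH2B2, NR1D1, SLC19A3, GPR157, BHLHE41, PLD6, TRIB1, LRFN1, SLC6A15, KAZN, BATF3, APLN, SLC19A2, SSPN and IL17D, with log2 differences between 2.84 and 1.52. They were chosen for OHT_Dox libraries that lie above all Ctrl libraries, and none lost its call under any alternative that was run.

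SH2B2, an adaptor of receptor tyrosine kinase signalling, had 10.6, 9.66 and 12.8 CPM in OHT_Dox libraries and 1.06, 1.42 and 0.867 CPM in Ctrl libraries. The log2 difference was 2.84 ± 0.16 (SE, adjusted p = 2.88e-10), the largest among the 15. It was 2.56 in OHT and -0.17 in Dox libraries against the same Ctrl libraries. PLD6, a mitochondrial phospholipase that is a known MYC target, had 122, 119.8 and 125.8 CPM in OHT_Dox libraries and 27.2, 28.4 and 26.0 CPM in Ctrl libraries. The groups stood far apart, with a log2 difference of 2.15 ± 0.06 (adjusted p = 2.05e-14). Its exons overlap AC055811.2 on the same strand and MPRIP on the opposite strand, and the strand setting of the counting is not stated.

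A pair of thiamine transporters rose. SLC19A3 had 11.3, 12.3 and 11.9 CPM in OHT_Dox libraries and 1.84, 1.74 and 1.94 CPM in Ctrl libraries (log2 difference 2.40 ± 0.11, adjusted p = 2.54e-11). SLC19A2 had 71.8, 74.0 and 64.8 CPM in OHT_Dox libraries and 26.1, 23.6 and 22.1 CPM in Ctrl libraries (log2 difference 1.53 ± 0.08, adjusted p = 6.14e-11). In neither gene did the groups overlap. GPR157, a G protein-coupled receptor, averaged 47.5 ± 2.29 CPM in OHT_Dox and 9.63 ± 0.883 CPM in Ctrl libraries (SD, n = 3 each). TRIB1, a pseudokinase that acts in protein degradation, averaged 17.4 ± 1.55 CPM in OHT_Dox and 3.62 ± 0.307 CPM in Ctrl libraries (SD, n = 3 each).

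The rises stood near the OHT level. APLN, which encodes the peptide ligand apelin, averaged 11.0 CPM in OHT_Dox libraries, 9.19 CPM with OHT alone, 4.29 CPM with Dox alone and 3.36 CPM in Ctrl libraries. BATF3, a basic leucine zipper factor, averaged 14.2 CPM in OHT_Dox libraries, 12.3 CPM with OHT alone, 5.04 CPM with Dox alone and 4.40 CPM in Ctrl libraries. For each of the 15 rises the difference between OHT_Dox and OHT did not pass the test, which does not show that the levels were equal.

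By the same rule the 15 largest falls included CXCL1, MYC, HAS2, TCEAL1, RGS4, SLCO5A1, SLITRK6, SNAI2, JAG1, HFM1, CXCL8, KLF6, COL6A3 and SOX9, with log2 differences between -2.18 and -1.25. They were chosen for OHT_Dox libraries that lie below all Ctrl libraries, and none lost its call under any alternative that was run.

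MYC, the paralogue of MYCN, had 6.88, 5.80 and 7.11 CPM in OHT_Dox libraries and 30.1, 29.9 and 29.9 CPM in Ctrl libraries. The log2 difference was -2.11 ± 0.10 (adjusted p = 2.54e-11), and it was -1.41 in OHT and -0.44 in Dox libraries. MYC was lower in OHT_Dox than in OHT libraries too, by a log2 difference of -0.70 (adjusted p = 0.000269). RGS4, an inhibitor of G protein signalling, had 50.2, 46.9 and 47.9 CPM in OHT_Dox libraries and 152, 187 and 164 CPM in Ctrl libraries. The OHT libraries averaged 99.9 CPM and the Dox libraries 96.5 CPM, between the other 2 groups. Its log2 difference was -1.78 ± 0.08 (adjusted p = 2.54e-11), and the interaction, the departure from the sum of the single log2 differences, did not pass the test (-0.24, adjusted p = 0.33).

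JAG1, a Notch ligand, had 49.9, 52.5 and 50.4 CPM in OHT_Dox libraries and 142, 128 and 131 CPM in Ctrl libraries (log2 difference -1.38 ± 0.08, adjusted p = 7.12e-10). KLF6, a zinc finger factor of the early response to growth signals, had 51.2, 49.4 and 49.9 CPM in OHT_Dox libraries and 133, 127 and 109.5 CPM in Ctrl libraries (log2 difference -1.28 ± 0.07, adjusted p = 8.33e-11). Both genes lay at intermediate levels with either compound alone: JAG1 averaged 91.8 CPM in OHT and 79.2 CPM in Dox libraries, and KLF6 77.6 CPM in OHT and 83.1 CPM in Dox libraries. SLCO5A1, a solute carrier, varied widely within groups, with 29.6, 24.0 and 25.9 CPM in OHT_Dox libraries and 78.8, 58.4 and 123 CPM in Ctrl libraries (log2 difference -1.63 ± 0.24, adjusted p = 5.14e-05).

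Other falls followed Dox. SNAI2, a repressor of epithelial genes, had 3.03, 3.52 and 2.97 CPM in OHT_Dox libraries and 8.91, 10.1 and 9.26 CPM in Ctrl libraries (log2 difference -1.44 ± 0.12, adjusted p = 6.67e-08). It averaged 7.35 CPM in OHT and 3.61 CPM in Dox libraries. COL6A3, a collagen VI chain, had 11.6, 11.4 and 9.80 CPM in OHT_Dox libraries and 29.6, 25.7 and 25.3 CPM in Ctrl libraries (log2 difference -1.26 ± 0.11, adjusted p = 7.2e-08). COL6A3 averaged 24.8 CPM in OHT and 11.4 CPM in Dox libraries, so the libraries with Dox were low and those without were high.

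**Figure D2:**
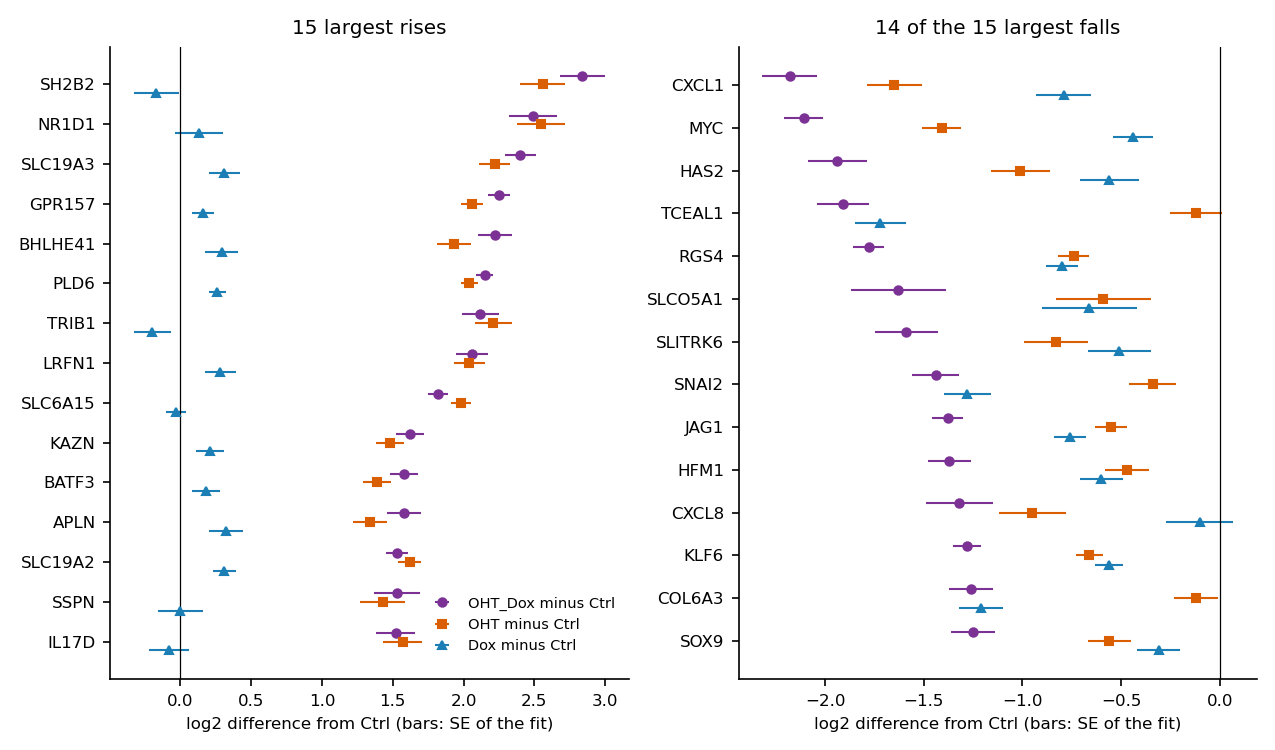
Log2 difference from Ctrl of the 15 largest rises (left) and 14 of the 15 largest falls (right), for OHT_Dox (circles), OHT (squares) and Dox (triangles), with bars for the SE of the fit; all 3 share the Ctrl libraries. Circles and squares lie close together for the rises, as in SH2B2 (2.84 and 2.56), while in falls such as RGS4 the circle (-1.78) lies beyond the square (-0.74) and the triangle (-0.80).

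**Figure D3:**
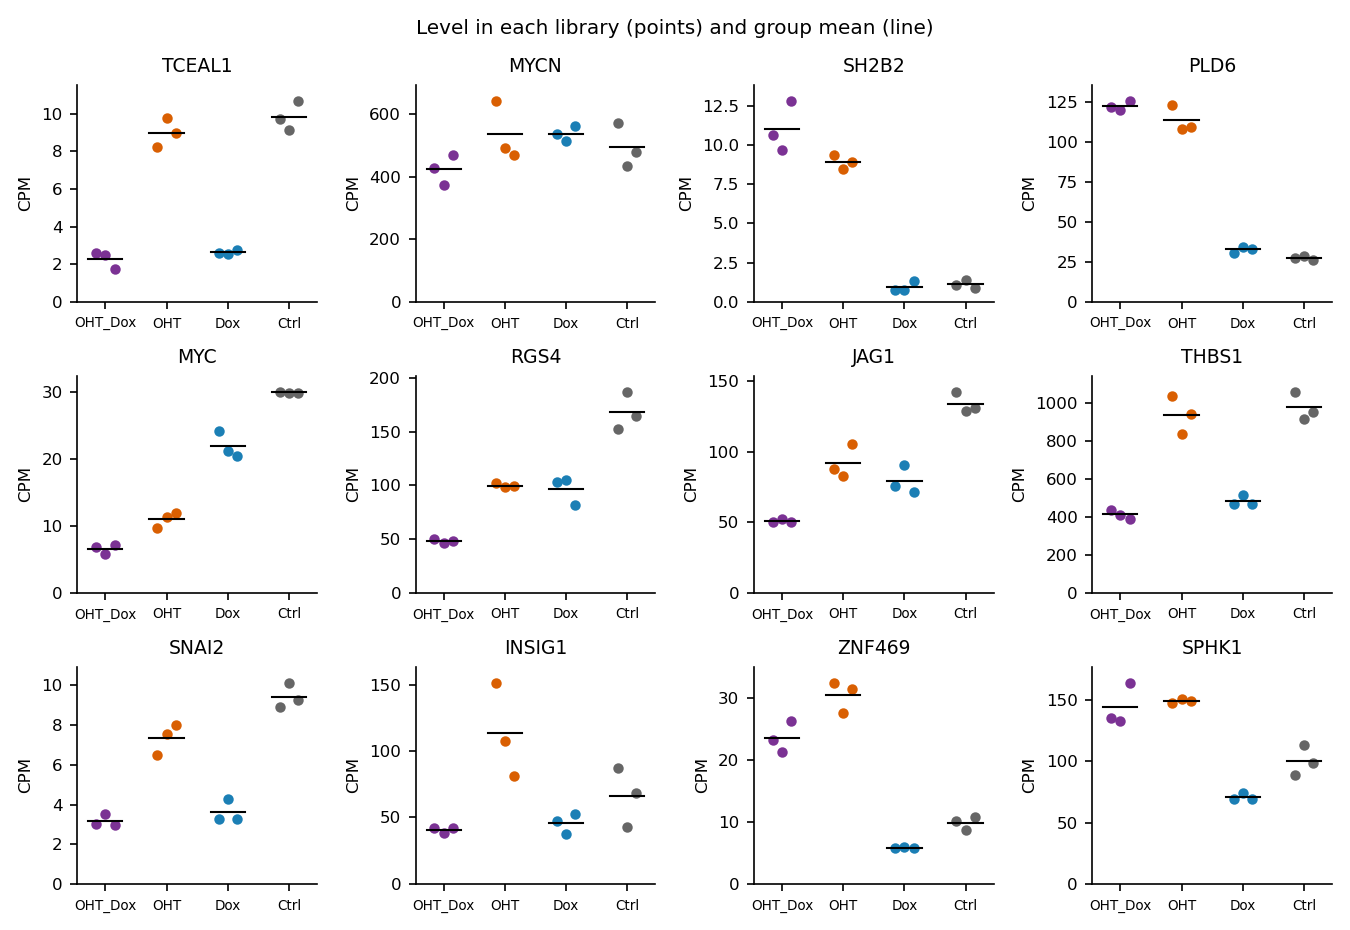
Level of 12 genes in CPM in each library (points, 3 per group) with the group mean (line), for OHT_Dox, OHT, Dox and Ctrl from left to right; each panel starts at 0. TCEAL1, SNAI2 and THBS1 are low in the OHT_Dox and Dox libraries, SH2B2 and PLD6 are high in the OHT_Dox and OHT libraries, and RGS4, JAG1 and MYC are lowest in the OHT_Dox libraries.

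Gene lists are given by how many tested members were called, to be read against 15.5% higher and 10.6% lower over all genes tested, whose median log2 difference was 0.007. The lists were not tested as sets. Where an alternative moved a list's count by more than 1.5 times and by more than 2 calls, it is given beside the count.

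In the MYC and MAX network, the partners and antagonists that share MAX, 5 of 12 tested members rose and MYC alone fell. MXI1, a MAX partner that opposes MYC, had 23.0, 23.9 and 23.1 CPM in OHT_Dox libraries and 8.77, 7.87 and 8.44 CPM in Ctrl libraries (log2 difference 1.43 ± 0.09, adjusted p = 9.74e-10). The groups did not overlap, and OHT alone gave a log2 difference of 1.53. MNT, another such antagonist, averaged 26.2 CPM in OHT_Dox and 16.9 CPM in Ctrl libraries, and MAX itself 104 CPM in OHT_Dox and 84.3 CPM in Ctrl libraries. The number that fell was 2 with the replicate block or with the length and GC trend removed.

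Of 34 nucleolar and ribosome assembly genes 20 rose and none fell, with a median log2 difference of 0.25. RRP1B, a nucleolar protein of ribosome assembly, had 251, 259 and 245 CPM in OHT_Dox libraries and 141, 129.3 and 125.9 CPM in Ctrl libraries (log2 difference 0.93 ± 0.06, adjusted p = 5.65e-10). POLR1A, the largest subunit of RNA polymerase I, averaged 138 ± 5.78 CPM in OHT_Dox and 88.7 ± 9.88 CPM in Ctrl libraries (SD, n = 3 each). NOLC1, a nucleolar chaperone, averaged 438 ± 10.8 CPM in OHT_Dox and 309.9 ± 9.43 CPM in Ctrl libraries (SD, n = 3 each). OHT alone raised 17 of the 34 and lowered none, and Dox alone raised 1 and lowered 3. The cytosolic ribosomal protein genes did not move with them: of 54 none rose and 8 fell. That 8 was 23 without Ctrl replicate 1 and 2 without Ctrl replicate 2. It was 3 or 4 without Ctrl replicate 3, OHT_Dox replicate 1 or OHT_Dox replicate 2. With no filter on low values it was 4, and with the 6 compared libraries alone it was 5.

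Amino acid transporters rose at 10 of 17 tested members and fell at 1, with a median log2 difference of 0.38. SLC7A5, the large neutral amino acid transporter, had 395, 392 and 441 CPM in OHT_Dox libraries and 204, 185 and 205 CPM in Ctrl libraries (log2 difference 1.05 ± 0.06, adjusted p = 1.63e-10). SLC6A15, a transporter of branched-chain amino acids, averaged 51.4 ± 1.31 CPM in OHT_Dox and 14.2 ± 0.753 CPM in Ctrl libraries (SD, n = 3 each). SLC7A2, a cationic amino acid transporter, averaged 99.4 CPM in OHT_Dox libraries, 92.7 CPM with OHT alone, 51.6 CPM with Dox alone and 35.6 CPM in Ctrl libraries. SLC1A4, a neutral amino acid transporter, fell, at 3.38 CPM in OHT_Dox and 5.15 CPM in Ctrl libraries.

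Enzymes of nucleotide and polyamine synthesis rose at 11 of 27 tested members and fell at 2. IMPDH1, an enzyme of guanine nucleotide synthesis, averaged 119 ± 8.8 CPM in OHT_Dox and 66.1 ± 2.44 CPM in Ctrl libraries, and ODC1, the first enzyme of polyamine synthesis, 414 ± 17.2 CPM in OHT_Dox and 284 ± 32.5 CPM in Ctrl libraries (SD, n = 3 each). Of 27 hypoxia and glycolysis genes 7 rose and 2 fell. HK2, a hexokinase, had 114, 113 and 115 CPM in OHT_Dox libraries and 50.6, 51.2 and 48.8 CPM in Ctrl libraries (log2 difference 1.18 ± 0.06, adjusted p = 9.58e-11).

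The circadian clock list held 9 members that rose and 3 that fell of 19 tested, with a median log2 difference of 0.37. NR1D1, the repressor REV-ERB alpha, had 17.8, 17.3 and 21.5 CPM in OHT_Dox libraries and 3.55, 2.20 and 3.21 CPM in Ctrl libraries (log2 difference 2.49 ± 0.17, adjusted p = 2.57e-09). ARNTL, the clock activator BMAL1, had 8.86, 8.81 and 8.23 CPM in OHT_Dox libraries and 18.4, 17.4 and 17.3 CPM in Ctrl libraries (log2 difference -0.99 ± 0.08, adjusted p = 4.95e-08). NR1D1 was higher and ARNTL lower in every OHT_Dox library than in any Ctrl library. PER2, a clock repressor, averaged 10.9 ± 0.388 CPM in OHT_Dox and 5.11 ± 0.5 CPM in Ctrl libraries (SD, n = 3 each). BHLHE41 and BHLHE40, related E-box repressors, went opposite ways: BHLHE41 rose (log2 difference 2.22) and BHLHE40 fell (-1.02). Exons of NR1D1 overlap THRA on the opposite strand, as do those of BHLHE41 with SSPN and MYCN with MYCNOS. Exons of HAS2 overlap HAS2-AS1 and those of SPHK1 overlap PRPSAP1, also on the opposite strand. The rises of BHLHE41 and SSPN may therefore not be separate. All of these counts are uncertain and may include reads of the overlapping gene. The same holds for JAG1, HFM1, SLCO5A1, KAZN, IL17D, DGKE, FZD4 and GALNT16, which overlap other genes on the opposite strand. LRFN1, GALNT16 and LINC00472 overlap a gene on the same strand. Overlaps were not sought for genes named only as list members.

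Matrix genes fell, with 16 of 34 lower, 2 higher and a median log2 difference of -0.20. THBS1, the matrix glycoprotein thrombospondin, had 439, 411 and 389.6 CPM in OHT_Dox libraries and 1061, 918 and 956 CPM in Ctrl libraries (log2 difference -1.24 ± 0.07, adjusted p = 3.84e-10). OHT libraries averaged near Ctrl (log2 difference -0.06) and Dox libraries were low (-1.01). COL1A1, a collagen I chain, had 510.3, 450.4 and 535 CPM in OHT_Dox libraries and 969, 863 and 941 CPM in Ctrl libraries (log2 difference -0.89 ± 0.07, adjusted p = 2.31e-08). HAS2, a hyaluronan synthase, had 2.22, 3.07 and 2.77 CPM in OHT_Dox libraries and 11.1, 11.3 and 12.6 CPM in Ctrl libraries (log2 difference -1.94 ± 0.15, adjusted p = 1.61e-08). MMP17, a membrane metalloprotease, went the other way, at 25.5 ± 3.88 CPM in OHT_Dox and 8.76 ± 0.781 CPM in Ctrl libraries (SD, n = 3 each). OHT alone lowered 5 of the 34 and Dox alone 12.

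TGF-beta response genes fell at 10 of 22 tested members and rose at 3. TGFBI, a matrix protein induced by TGF-beta, had 75.7, 73.8 and 88.1 CPM in OHT_Dox libraries and 164 to 182 CPM in Ctrl libraries (log2 difference -1.14 ± 0.08, adjusted p = 7.77e-09). PMEPA1, a feedback inhibitor of the pathway, averaged 21.3 ± 1.11 CPM in OHT_Dox and 45.6 ± 4.95 CPM in Ctrl libraries (SD, n = 3 each). SKI, also an inhibitor of the pathway, and SMAD6, an inhibitor within the wider TGF-beta family, rose, with log2 differences of 0.46 and 0.59. THBS1 and TGFBI stand in both the matrix and the TGF-beta list.

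Sterol synthesis and uptake genes fell at 9 of 23 tested members and rose at 2, whereas OHT alone raised 7 and lowered none against the same Ctrl libraries. INSIG1, the sterol sensor's retention protein, had 41.8, 38.6 and 41.9 CPM in OHT_Dox libraries and 87.0, 42.5 and 68.2 CPM in Ctrl libraries. The groups did not overlap, but the lowest Ctrl library was close to the OHT_Dox libraries (log2 difference -0.63 ± 0.20, adjusted p = 0.0263). INSIG1 lost its call without any 1 OHT_Dox library, without Ctrl replicate 1 and without Ctrl replicate 3. With OHT alone INSIG1 had 82 to 152 CPM, and the interaction did not pass the test (-0.95, adjusted p = 0.218). HMGCS1, an early enzyme of the pathway, had 32.6, 32.8 and 32.2 CPM in OHT_Dox libraries and 59.1, 42.0 and 48.3 CPM in Ctrl libraries (log2 difference -0.59 ± 0.09, adjusted p = 9.62e-05). DHCR7, the last enzyme of the pathway, rose, at 120 ± 15.6 CPM in OHT_Dox and 79.95 ± 23.2 CPM in Ctrl libraries (SD, n = 3 each). DHCR7 too lost its call, without Ctrl replicate 2. The number of members that fell was 5 without Ctrl replicate 1.

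**Figure D4:**
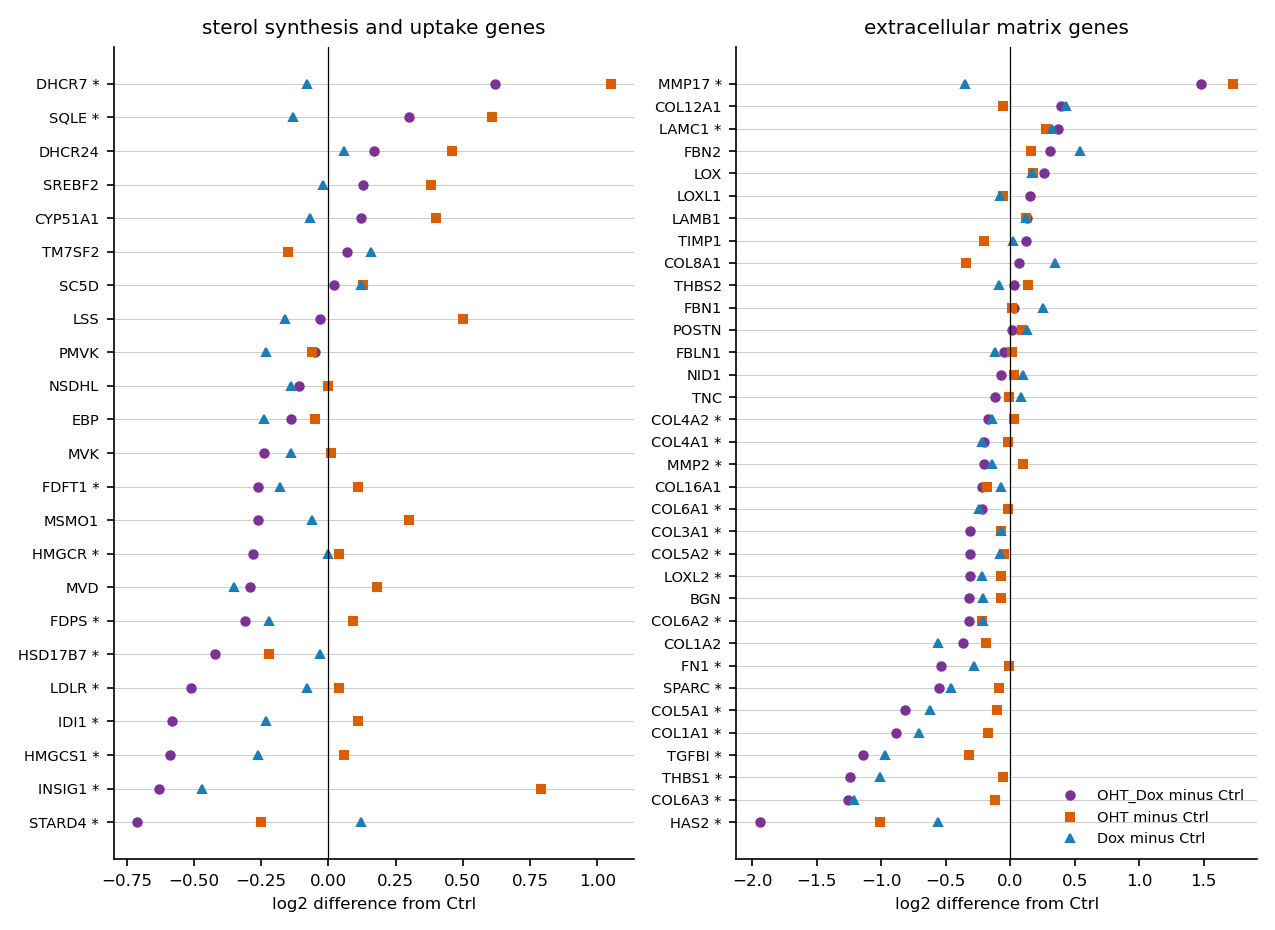
Log2 difference from Ctrl of the 23 sterol genes (left) and 34 matrix genes (right) tested, for OHT_Dox (circles), OHT (squares) and Dox (triangles), with a star at members called in OHT_Dox against Ctrl; all 3 share the Ctrl libraries. INSIG1 lies at -0.63 in OHT_Dox and 0.79 in OHT, and COL6A3 at -1.26 in OHT_Dox, -0.12 in OHT and -1.21 in Dox.

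Immediate early and MAPK feedback genes fell at 13 of 29 tested members and rose at 3. MYC is counted among these falls and in the MYC and MAX network. DUSP6, a phosphatase that limits ERK, had 10.8, 11.1 and 13.8 CPM in OHT_Dox libraries and 23.8, 22.02 and 24.1 CPM in Ctrl libraries (log2 difference -0.95 ± 0.10, adjusted p = 7.36e-07). EGR1, an early response factor, rose, at 8.85 ± 0.573 CPM in OHT_Dox and 6.23 ± 0.609 CPM in Ctrl libraries (SD, n = 3 each). Among 17 inflammatory genes 5 fell and 1 rose. CXCL1, a neutrophil chemokine, had 3.94, 3.18 and 2.70 CPM in OHT_Dox libraries and 14.3, 19.5 and 15.8 CPM in Ctrl libraries (log2 difference -2.18 ± 0.14, adjusted p = 1.36e-09). CXCL8, a related chemokine, averaged 2.13 ± 0.428 CPM in OHT_Dox and 6.17 ± 1.76 CPM in Ctrl libraries (SD, n = 3 each).

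Among cell cycle lists more members fell than rose. Calls in either direction were made at 50% of DNA replication genes and 39.3% of mitotic genes, against 26.1% of all genes tested. DNA replication genes fell at 13 of 30 and rose at 2, and mitotic genes fell at 11 of 28 and rose at none, with median log2 differences of -0.11 and -0.15. ORC1, of the origin recognition complex, averaged 32.7 ± 2.64 CPM in OHT_Dox and 47.2 ± 1.22 CPM in Ctrl libraries, and DSN1, of the kinetochore, 24.3 ± 0.673 CPM in OHT_Dox and 46.0 ± 1.96 CPM in Ctrl libraries (SD, n = 3 each). CCNE1, the G1/S cyclin E1, rose, at 56.3 ± 5.8 CPM in OHT_Dox and 40.2 ± 3 CPM in Ctrl libraries (SD, n = 3 each). The mitotic count was 19 with the length and GC trend removed. A separate list of D-type cyclins, their kinases, CDK inhibitors and RB family genes, which does not hold the E cyclins, fell at 5 of 13, which was 3 without OHT_Dox replicate 1, and rose at none.

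Of the 10 tested TCEAL, BEX and TFIIS family genes 5 fell and none rose. The 5 include TCEAL1, the target of the hairpin, whose fall is given above. TCEAL9 had 27.5, 25.7 and 22.3 CPM in OHT_Dox libraries and 53.2, 59.0 and 53.3 CPM in Ctrl libraries (log2 difference -1.12 ± 0.08, adjusted p = 3.34e-09), and it averaged between these groups with either compound alone, with log2 differences of -0.56 in OHT and -0.45 in Dox libraries. Pausing and elongation factors rose at 7 of 39 and fell at 5, and that 5 was 8 with TMM rescaling, DESeq2 or the trend removed and 3 without OHT_Dox replicate 1 or Ctrl replicate 2. MLLT1, a subunit of the super elongation complex, averaged 86.7 ± 6.54 CPM in OHT_Dox and 51.8 ± 6.65 CPM in Ctrl libraries (SD, n = 3 each). RNA polymerase II subunits rose at 2 of 12 and fell at 1, and that 1 was 0 when any 1 OHT_Dox library, Ctrl replicate 2 or Ctrl replicate 3 was left out.

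Among cell state markers, mesenchymal genes rose at 5 of 19 and fell at 7, and the 5 was 3 without OHT_Dox replicate 1 or 2. TWIST2, a mesenchymal transcription factor, averaged 19.2 ± 1.95 CPM in OHT_Dox and 8.32 ± 1.34 CPM in Ctrl libraries, while VIM, the filament protein vimentin, averaged 2385 ± 163 CPM in OHT_Dox and 2903 ± 184 CPM in Ctrl libraries (SD, n = 3 each). A longer list of adrenergic genes rose at 3 of 9 tested and fell at none. GATA2, an adrenergic factor, averaged 54.8 ± 2.5 CPM in OHT_Dox and 35.1 ± 2.12 CPM in Ctrl libraries (SD, n = 3 each). Of 5 tested members of a wider epithelial and haematopoietic list 2 fell, the keratins KRT18 (log2 difference -0.62) and KRT8 (-0.59). In RNA from whole cultures, fewer cells of a type and less RNA per cell cannot be told apart.

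YAP and TEAD targets fell at 7 of 21 and rose at 4. ANKRD1, a YAP target, averaged 402 ± 30 CPM in OHT_Dox and 700.3 ± 66.6 CPM in Ctrl libraries (SD, n = 3 each). BCL2 family genes rose at 4 of 14 and fell at 4, and the 4 that rose were 2 without OHT_Dox replicate 3 or Ctrl replicate 3. HRK, which promotes apoptosis, had 16.8, 16.9 and 13.1 CPM in OHT_Dox libraries and 5.42, 5.51 and 4.89 CPM in Ctrl libraries (log2 difference 1.47 ± 0.11, adjusted p = 8.64e-09). The p53 targets rose at 4 of 22 and fell at 7, and the 7 was 4 with no filter or with the 6 compared libraries alone. Of 34 axon guidance genes 5 rose and 8 fell, the 5 being 3 without Ctrl replicate 2 and the 8 being 13 with the trend removed. Contractile and adhesion genes rose at 2 of 25 and fell at 6, the 6 being 11 with the trend removed.

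Oxidative phosphorylation genes fell at 7 of 35 and rose at none. The 7 was 12 without Ctrl replicate 1 and 1 without Ctrl replicate 2. It was 2 or 3 without Ctrl replicate 3, OHT_Dox replicate 1 or OHT_Dox replicate 2, and 2 with the 6 compared libraries alone. ATF4 targets rose at 5 of 20 and fell at 4, and the counts were 3 and 2 without OHT_Dox replicate 2 or Ctrl replicate 3, the 5 also being 3 without OHT_Dox replicate 1. Endoplasmic reticulum stress genes rose at 1 of 18 and fell at 2, interferon-stimulated genes rose at 1 of 24 and fell at 2, and heat shock genes fell at 3 of 14 and rose at none. The count that fell among stress genes was between 1 and 6 over the alternatives.

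**Figure D5:**
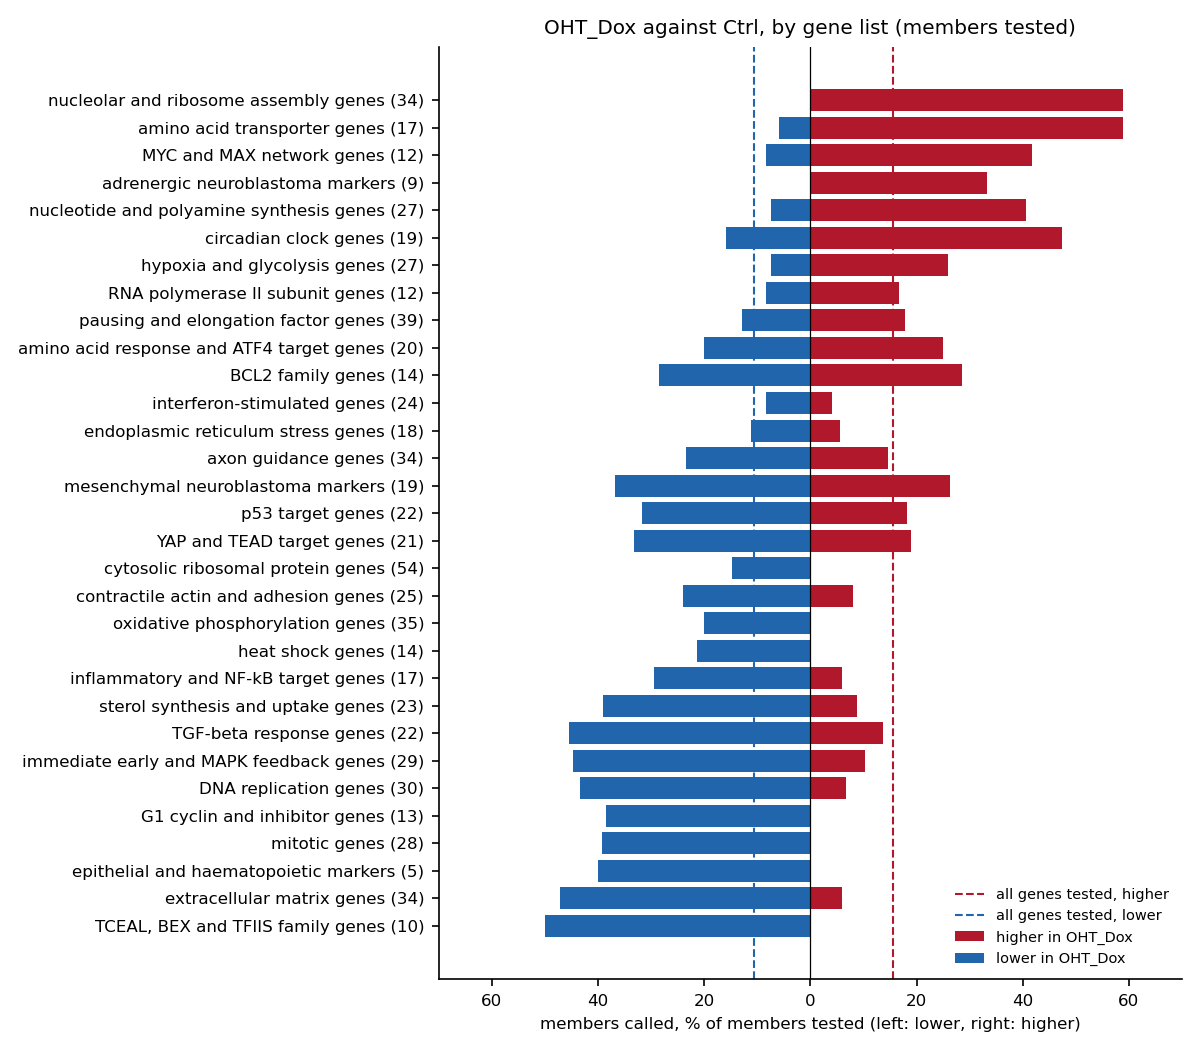
Share of tested members called in OHT_Dox against Ctrl, in percent, to the right for members higher and to the left for members lower in OHT_Dox, for 31 gene lists with the number tested in brackets; dashed lines mark all genes tested (15.5% higher, 10.6% lower). Nucleolar genes reach 58.8% higher and 0% lower, matrix genes 5.88% higher and 47.1% lower.

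Genes were also grouped by their calls with each compound alone, a choice made on the measured values and given without a test. Where both compounds alone lowered a gene, the levels are given side by side: HAS2 averaged 2.69 CPM in OHT_Dox libraries, 5.63 CPM with OHT alone, 7.80 CPM with Dox alone and 11.7 CPM in Ctrl libraries. Where both raised a gene, DGKE, a diacylglycerol kinase, averaged 25.1 CPM in OHT_Dox libraries, 21.7 CPM with OHT alone, 18.2 CPM with Dox alone and 12.9 CPM in Ctrl libraries. The EEF1A1 pseudogenes in that first group, EEF1A1P14, EEF1A1P4 and EEF1A1P29, are near-identical copies of an expressed gene and are uncertain. EEF1A1P29 was not called in OHT_Dox (log2 difference -0.38, adjusted p = 0.26). EEF1A1P14 and EEF1A1P4 lost the OHT_Dox call without OHT_Dox replicate 2 or Ctrl replicate 2. EEF1A1P4 lost it without OHT_Dox replicate 3 too, and EEF1A1P14 with DESeq2. HAS2 lost its Dox call without Ctrl replicate 2.

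Where the compounds alone moved a gene in opposite directions, the net levels were as follows. ZNF469, a zinc finger gene, averaged 23.6 CPM in OHT_Dox libraries, 30.6 CPM with OHT alone, 5.86 CPM with Dox alone and 9.86 CPM in Ctrl libraries. SPHK1, a sphingosine kinase, averaged 144 CPM in OHT_Dox libraries, 149 CPM with OHT alone, 71.0 CPM with Dox alone and 100.4 CPM in Ctrl libraries. FZD4, a Wnt receptor, averaged 18.0 CPM in OHT_Dox libraries, 26.3 CPM with OHT alone, 11.95 CPM with Dox alone and 17.2 CPM in Ctrl libraries, so that OHT_Dox and Ctrl libraries overlapped while the single treatments lay on either side.

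Some genes were called in OHT_Dox and with neither compound alone, which does not show that the compounds act differently together. GALNT16, a glycosyltransferase, had 5.49, 4.96 and 4.79 CPM in OHT_Dox libraries and 2.80, 3.03 and 1.94 CPM in Ctrl libraries, with means of 2.59 CPM in OHT and 3.14 CPM in Dox libraries. CDH19, a cadherin, averaged 4.36 CPM in OHT_Dox libraries, 7.33 CPM with OHT alone, 6.16 CPM with Dox alone and 8.21 CPM in Ctrl libraries. Over all genes the interaction was called at 0 genes by limma and by edgeR and at 6 by DESeq2 (4 positive, 2 negative). In the limma fit 2851 of the 18089 genes had an unadjusted interaction p below 0.05, a share larger than 0.05 itself. Without Ctrl replicate 1 limma called 278 positive and 782 negative interactions.

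Reads assigned to MIR30A, the gene of a microRNA, gave the largest log2 difference in the fit, and the gene was named after its values were seen. It had 30.2, 30.7 and 27.1 CPM in OHT_Dox libraries and 0.0728, 0.160 and 0.121 CPM in Ctrl libraries. The Ctrl values rest on 4, 9 and 7 reads, and MIR30A passed the filter through the OHT_Dox libraries alone, so its log2 difference of 5.59 is given as a description, and the pseudocount makes it smaller than the ratio of the CPM values. The Dox libraries averaged 29.5 CPM and the OHT libraries 0.106 CPM, so the level went with Dox. LINC00472, a noncoding gene also named after its values were seen, averaged 143 ± 12.2 CPM in OHT_Dox and 9.63 ± 0.93 CPM in Ctrl libraries (SD, n = 3 each). It averaged 141.9 CPM with Dox alone and 9.3 CPM with OHT alone, so its level went with Dox too. Both genes lie on chromosome 6. Many inducible hairpin vectors carry miR-30 sequence around the hairpin. The labels do not give the sequence of this vector, and whether the reads came from it or from the chromosomal genes was not tested. The MIR30A hairpin (RefSeq, GRCh38.p14, chr6:71403551-71403621, minus strand) is shown as the annotated sequence to which these reads were assigned, with the arms of mature miR-30a in capitals.
MIR30A: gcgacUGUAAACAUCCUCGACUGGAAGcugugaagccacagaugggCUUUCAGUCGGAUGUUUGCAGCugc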

How the data were processed

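Poly(A) RNA of SHEP cells was made into stranded libraries (NEBNext Ultra II Directional) and sequenced on a NextSeq2000, per the labels' protocols. The authors deposited CPM for 28576 genes, each library summing to 1000000. Per the submitters' processing notes, STAR, featureCounts, Bowtie, Bowtie2, FastQC, DRAGEN and the builds hg19 and mm10 were used, with no roles given. Versions, annotation and strand setting are not given in the sources used here. All values were whole multiples of 1 read within 0.01 reads, so read counts were recovered. GENCODE 29 (28572 genes matched) gave names, types, lengths and GC content only, and RefSeq GRCh38.p14 the sequences. The 18089 genes with at least 0.5 CPM in 3 of the 6 libraries were fitted as log2(CPM + 0.5) with limma 3.58.1 in R 4.3.3 over all 12 libraries, with 1 mean per group, a mean-variance trend and Benjamini-Hochberg adjustment, and a call was a two-sided adjusted p below 0.05. At low CPM the pseudocount of 0.5 draws differences towards 0. The fit was tested on simulated data. Alternatives were TMM, edgeR 4.0.16 and DESeq2 1.42.0 on the recovered counts, other pseudocounts and filters, the 6 libraries alone, a replicate block, removal of the length and GC trend, and each library left out.

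Named genes were the 15 largest rises and falls among calls with a mean of 5 CPM or more and groups that do not overlap, without clone, LINC, MIR or antisense symbols, TCEAL1, MYCN, USP11, USP7 and TCEA1, members of each list with the smallest p, some list members named after their values were seen to show both directions, and genes grouped by their single-compound calls. The members and lists were chosen with earlier results of these data known. Some genes are not reported here.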

Additional observations from a re-analysis of the deposited data

How the results depend on the processing

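All calls shared between the reported fit and each alternative kept their direction. The number higher was 2561 to 3083 and the number lower 1669 to 2415 under TMM, edgeR, DESeq2, other pseudocounts, both filters and the replicate block, 2625 and 1623 with the 6 libraries alone, and 2788 and 2965 with the length and GC trend removed. Leaving out 1 library gave 2230 to 2906 higher and 1436 to 1749 lower, and 126 to 166 higher and 48 to 60 lower past 2-fold. Past 2-fold, 230 were higher with edgeR, 230 with DESeq2 and 221 with a pseudocount of 0.1, and 116, 113 and 85 were lower. Interactions, 0 in the reported fit, were 278 positive and 782 negative without Ctrl replicate 1. The replicate block, the number as a term in the fit, gave 3083 higher and 2248 lower and called MYCN (-0.22). Same-numbered OHT_Dox and Ctrl libraries deviated together with correlations of 0.0564, 0.0268 and 0.257, and 4 of 6 libraries matched their own number best. These values do not settle whether the numbers pair libraries. The labels do not say that they do, and the numbers were not taken as pairs. Among the named genes and the list members with the smallest p, 22 lost their OHT_Dox call without Ctrl replicate 2, 4 to 18 without each other library, 8 with the 6 libraries alone, 6 with no filter, 2 with DESeq2 and 1 with the trend removed. The cause of these shifts was not tested. The recovered counts summed to 44466458 or more in each library, and genes under 0.5 CPM were not analysed here.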
